A study of Rattus norvegicus with 12 samples.

Results

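Estradiol (E2), the main ovarian estrogen, was compared with vehicle in the uterus of ovariectomized rats that received no other compound. The rats were young adult Lewis females without ovaries, the main source of estrogens. Vehicle rats received DMSO and E2 rats received 17β-estradiol at 4 µg/kg per day, in both cases for 3 days, and uteri were taken 24 h after the last dose. Each group held 3 rats with 1 Affymetrix array per rat, so that 6 of the 12 arrays of the study belong to this comparison. The other 6 rats received 3-methylcholanthrene (3-MC), a polycyclic aromatic hydrocarbon, at 15 mg/kg per day without or with the same dose of E2 (groups 3-MC and E2+3-MC). They served to set the spread between rats and, at the end, as a second set of rats with and without E2. All of the groups shared the removal of the ovaries. What the arrays measure is therefore the response to a hormone that had been withdrawn, in whole uterus, in which a change in the share of a cell type and a change in RNA per cell cannot be told apart.

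Estradiol acts in the uterus through estrogen receptor alpha, encoded by Esr1, a ligand-bound transcription factor found in epithelium, stroma and muscle. Without ovaries the uterus shrinks to a thin, resting epithelium over a quiet stroma. Estradiol is known to bring back growth, fluid and protein secretion by the epithelium, and an inflow of leukocytes. Part of its action on the epithelium is known to pass through the stroma, which returns growth factors such as Igf1.

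The table of deposited intensities holds 29214 probe sets, of which 15310 have 1 gene symbol and stand for 14506 genes. The 10154 genes that remained after the dimmest 30% were left out entered the test, in which intensities were taken as log2(intensity + 16). This limit lay at 6.44, which is called the dim limit here. A gene was called when its adjusted p (limma, Benjamini-Hochberg over the 10154 genes) was under 0.05. Differences are E2 minus vehicle on the log2 scale ± the standard error (SE) of the fit. Intensities are given for rats 1, 2 and 3 in that order, without normalization between arrays. Where 1 of the group means lies under the limit, a fold is counted from the limit, because the log2 difference then depends on the added 16.

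The arrays were not alike in scale. Median intensities of the 12 arrays ran from 86.3 to 124. Vehicle rat 1 stood apart: its interquartile range was 2.70 (log2), where the others had 1.87 to 2.35, and it had the highest value of the 6 rats for many bright genes. The median SD between vehicle rats was 0.394, against 0.211 between E2 rats. Levels of tissue marker genes were read as well. In the 6 rats markers of smooth muscle, stroma and epithelium had mean log2 levels of 10.25 to 11.09, 9.01 to 10.24 and 8.07 to 9.55. Only members that passed the filter on dim genes enter these means, so they could hardly fall under the dim limit. Skeletal muscle markers lay at 8.17 to 8.60, so levels above the limit do not single out the uterus.

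Estradiol changed about as many genes upward as downward, but the rises were larger. Of the 10154 genes tested 1842 were called, which is 18.1%, with 883 higher (8.7%) and 959 lower (9.44%). Among the called genes 521 were at least 2-fold higher and 330 at least 2-fold lower, together 8.38% of the genes tested. At 8-fold or more there were 65 higher against 12 lower, or 46 against 8 with folds counted from the dim limit. At 16-fold or more there were 30 against 3, or 20 against 0 counted from the limit. The median called difference was 1.10 among the higher genes and -0.85 among the lower. Many of these genes were dim in 1 group: 185 of the higher genes lay under the dim limit with vehicle and 262 of the lower genes with E2. The 3 rats of 1 group did not overlap the 3 of the other in 1730 of the called genes. Over all genes tested this held for 27.2%, with E2 above vehicle in 10.1% and below it in 17.1%. The balance of directions depended on the scale of the arrays: the median difference over all genes was -0.11 as deposited, -0.03 after quantile normalization and 0.05 after median centring. Median centring gave 1535 higher and 801 lower genes (65.7% higher against 47.9%), and quantile normalization called 3904 of the same 10154 genes (38.4%), 1825 of the 1842 among them. The count also rested on single rats: it was 3546 (34.9%) without vehicle rat 1 (2411 higher and 1135 lower), 1156 without E2 rat 2 (716 and 440) and 999 without E2 rat 3 (586 and 413).

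The response is taken by gene group from here on, and a share of called members is to be read against the 18.1% over all genes (8.7% higher and 9.44% lower). In every list the count covers only members bright enough to pass the filter. A member that passed through its levels with E2 alone had to differ, so its call adds no support. A range in brackets after a count gives its lowest and highest value when any 1 of the 6 rats is left out, where that moves the count by over 1.5 times. Over the 73 groups with a call the count was lowest without E2 rat 3 in 64 and without E2 rat 2 in 40, ties included, and highest without vehicle rat 1 in 63.

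**Figure D1:**
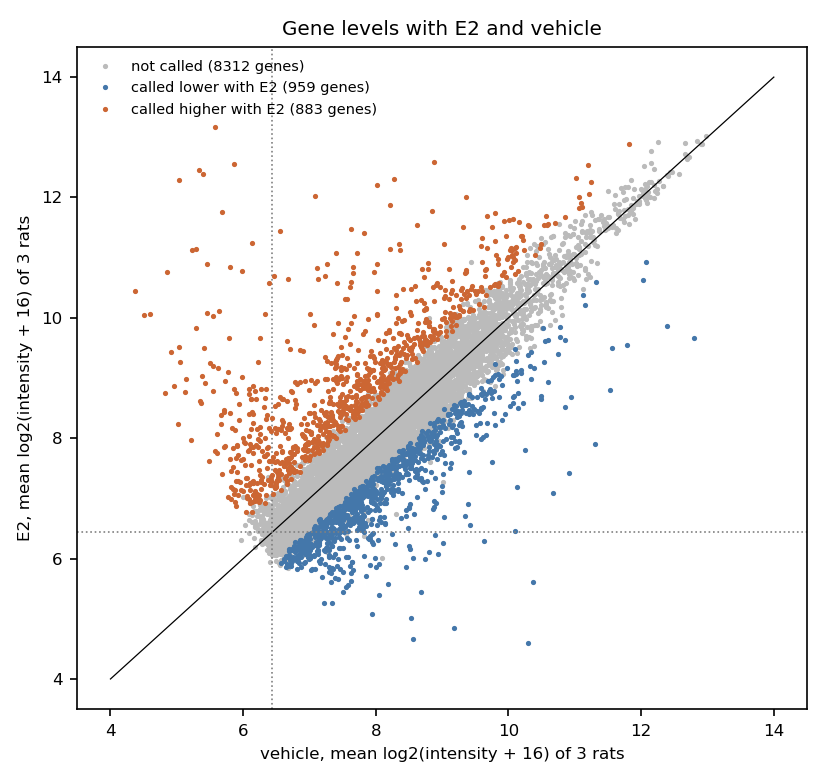
Mean log2(intensity + 16) of 3 vehicle rats (horizontal) and 3 E2 rats (vertical) for the 10154 genes tested, 1 point per gene. The dotted lines mark the dim limit of 6.44; the 883 genes called higher reach farther from the diagonal than the 959 called lower, and many of them start to the left of the dotted line.

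The largest rises by log2 difference were those of Reg3g, Prss32, Mmp7, Cuzd1 and C3, at 6.69 to 7.59, and the next 10 by size rose by 5.05 to 6.09. All 15 were dim with vehicle, so this order depends in part on the added 16. Lpo encodes lactoperoxidase, an antibacterial enzyme of milk, saliva and airway fluid. Its intensities were 24.3, 51.8 and 33.2 in the vehicle rats and 4314, 3029 and 3184 in the E2 rats. No vehicle rat reached the dim limit and the E2 rats lay close together, for a difference of 6.09 ± 0.34 (adjusted p = 1.5e-09) and a 40.03-fold rise counted from the limit. Olfm4, a glycoprotein of intestinal crypts and of endometrium, went from 0.0308, 5.80 and 9.49 to 1425, 1314 and 1423. Scgb1a1, known as uteroglobin, is a small secreted protein that binds steroids and lipids, and it went from 9.64, 11.7 and 18.5 to 2158, 1594 and 1494. Both genes were near the floor of the scale without the hormone, and counted from the dim limit they rose 16.1-fold and 20.03-fold.

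Fam3d, a secreted protein of the gut, had intensities of 20.6, 21.5 and 23.1 with vehicle and 2334, 1962 and 2396 with E2 (5.89 ± 0.24). Dmbt1, a mucosal glycoprotein that binds bacteria, had 44.8, 27.96 and 15.95 with vehicle and 2353, 1582 and 1836 with E2 (5.44 ± 0.31). Lipf, the lipase of gastric juice, had 9.40, 9.42 and 6.08 and 1035, 1117 and 1031 in the same groups (5.47 ± 0.34). In each of these 3 genes every vehicle rat was dim and every E2 rat was bright. The membrane serine protease gene Tmprss11b rose by 5.55 ± 0.38. The Slpi pseudogene Slpi-ps1 rose by 5.85 ± 0.81, though its probe set may also read transcripts of the protease inhibitor gene Slpi, which itself rose by 3.85 ± 0.48. Gjb2, which encodes the gap junction protein connexin 26, had 42.6, 35.95 and 40.4 with vehicle and 1957, 1778 and 1748 with E2 (5.05 ± 0.19, adjusted p = 8.81e-12).

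**Figure D2:**
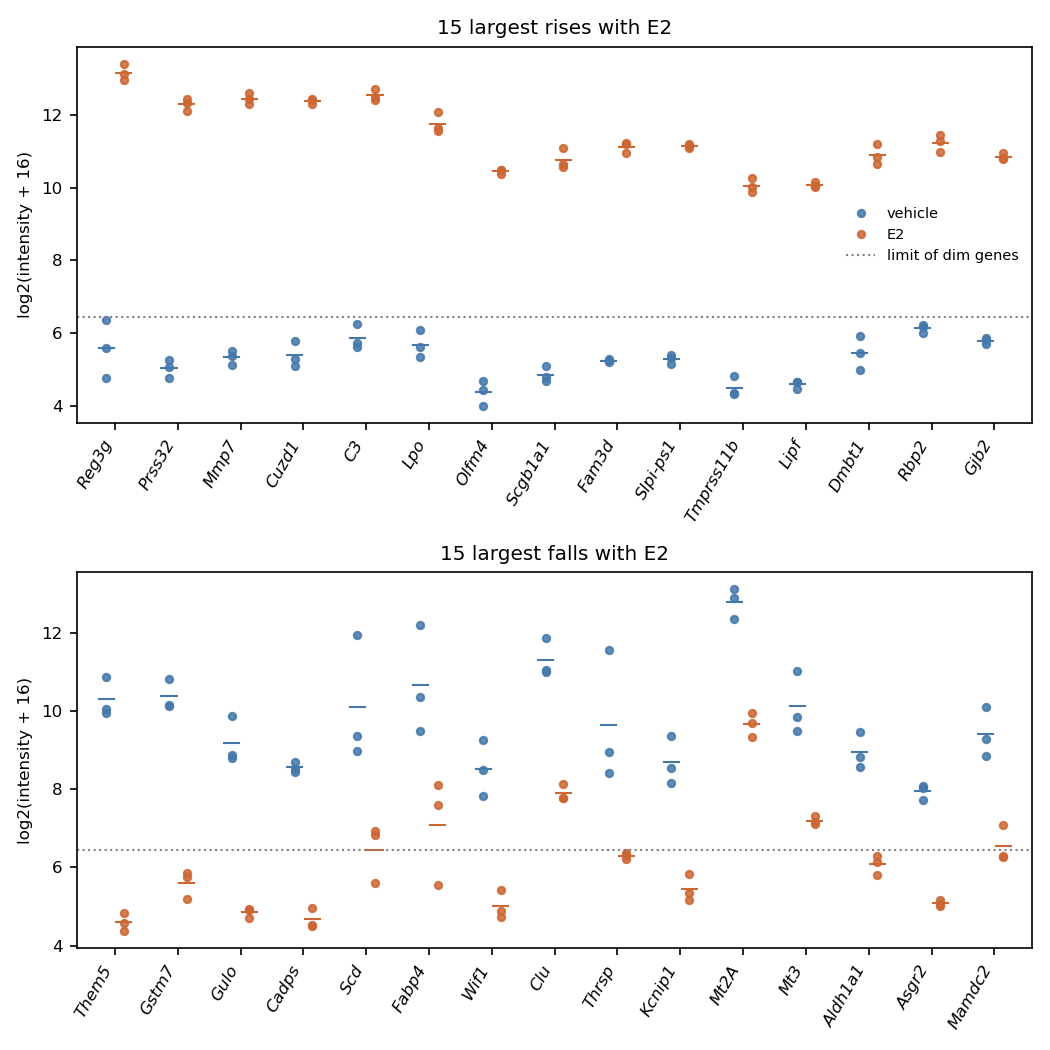
Log2(intensity + 16) in single rats for the genes with the largest differences, chosen among called genes whose groups do not overlap. Points are rats, short lines are means of 3 rats, and the dotted line is the dim limit of 6.44. All 15 genes that rose had vehicle means under that limit, and among the genes that fell Scd, Fabp4 and Thrsp spread most between vehicle rats.

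Among genes called higher with both group means above the dim limit, the smallest p-values were those of S100g, Ccl11, Bcat1, Plet1 and Kap. Bcat1 encodes the cytosolic enzyme that starts the breakdown of branched-chain amino acids. Its intensities were 131, 54.7 and 51.3 with vehicle and 1717, 1556 and 1634 with E2, an 18.6-fold rise (adjusted p = 1.29e-08). Plet1, a surface protein of epithelial progenitor cells, had 649.8, 456 and 319 and 6595, 6060 and 5869, a rise of 13.1-fold (adjusted p = 1.39e-08). Kap, a small secreted protein first described in kidney, had 267, 358 and 263 and 5457, 4757 and 4961, a 16.4-fold rise (adjusted p = 2.42e-08). In these 3 genes the highest vehicle rat lay far below the lowest E2 rat, and in Plet1 and Kap every vehicle rat lay above the dim limit.

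Among the largest falls were genes of neuronal secretion, potassium currents and the liver surface. Cadps, which primes dense-core vesicles for release, had intensities of 334, 349.8 and 401 with vehicle and 15.1, 6.84 and 7.22 with E2 (-3.89 ± 0.29, adjusted p = 4.95e-08). Kcnip1, a calcium-binding subunit of potassium channels, had 639, 359 and 269 and 40.6, 19.8 and 24.7 (-3.24 ± 0.32). Asgr2, a subunit of the receptor that clears desialylated glycoproteins in liver, had 245, 257 and 195 and 19.9, 17.3 and 16.6 (-2.86 ± 0.20). Every E2 rat was lower than every vehicle rat in these 3 genes, and the E2 means were under the dim limit. Mamdc2, a matrix proteoglycan, fell by 2.86, from 1085, 609.6 and 446 to 119.8, 61.7 and 62.7. Clu, the chaperone clusterin that is abundant in the regressed uterus, had 3749, 2016 and 2108 and 266, 205 and 203, a fall of 3.41. Wif1, a secreted inhibitor of Wnt proteins, had 597, 211 and 345 and 10.8, 27.3 and 13.4, a fall of 3.51.

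Scd, Fabp4 and Thrsp were also among the 15 largest falls. Scd and Thrsp moved with markers of fat cells, a list that holds Fabp4 itself. Thrsp, a regulator of fat synthesis, had 3017, 477 and 323 in the vehicle rats and 63.2, 57.98 and 65.99 in the E2 rats. Fabp4, the fatty acid binding protein of adipocytes, had 4665, 699.6 and 1289 and 30.5, 262 and 177. Vehicle rat 1 was several-fold above the other vehicle rats in both genes and in Scd, and the E2 rats were below the other vehicle rats too. Of 10 adipocyte markers tested 6 [1 to 6] were called lower and 1 [1 to 3] higher, with 70% called. The mean log2 level over the list was 10.21, 7.92 and 8.20 in the vehicle rats and 7.42, 7.74 and 7.67 in the E2 rats, and none of these markers was at 0. Without vehicle rat 1 the differences were -2.71 for Scd, -2.83 for Fabp4 and -2.38 for Thrsp. In the rats given 3-MC the same genes differed between E2+3-MC and 3-MC by 0.84, 1.86 and -0.13, none of them called. The part of fat around the uterus in these 3 differences was not tested.

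Among hormone receptors that of progesterone rose, that of estradiol was not called, and receptors for thyroid hormone, aldosterone and luteinising hormone were lower. Esr1 had intensities of 3617, 1874 and 1859 with vehicle and 2013, 1395 and 1715 with E2. The groups overlapped, and the difference was -0.46 ± 0.25 (95% interval -0.98 to 0.06, adjusted p = 0.209). It was -0.64 and called after quantile normalization, and -0.14 without vehicle rat 1. Pgr, the progesterone receptor gene and a textbook estradiol target, had 1728, 1310 and 1216 and 2543, 2158 and 2109, a 1.61-fold rise (adjusted p = 0.0363). Esr2, the second estrogen receptor gene, was dim in all 6 rats and was not tested, and Greb1 matched no probe set. Of 21 hormone receptor genes tested 3 [0 to 6] were higher and 5 [3 to 6] lower, with 38.1% called. The higher ones were Pgr and the receptors for relaxin and its relative Insl3, Rxfp1 (0.75 ± 0.20) and Rxfp2 (1.10 ± 0.31). The lower ones were Lhcgr, the receptor of luteinising hormone (-1.52 ± 0.30), Nr3c2, the mineralocorticoid receptor (-1.28 ± 0.21), the orphan receptor gene Nr2f1 (-1.14 ± 0.24) and the thyroid hormone receptor genes Thra (-0.99 ± 0.25) and Thrb (-0.74 ± 0.23).

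Of 21 cofactors of nuclear receptors tested 5 [1 to 6] were lower and 0 [0 to 1] higher, with 23.8% called against 18.1% over all genes (9.44% lower). The lower ones were the coactivator Ncoa1 (-0.87 ± 0.25), the pioneer and lineage factors Foxa2 (-0.82 ± 0.23), Gata2 (-0.71 ± 0.20) and Gata6 (-1.03 ± 0.20), and the repressor Safb (-0.64 ± 0.21). Foxa2 marks the glands of the endometrium.

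A list of genes known to follow estradiol in breast or uterus had 12 [11 to 19] of 40 members higher and 5 lower, with 42.5% called. C3, the central complement protein, had intensities of 59.5, 32.99 and 36.8 with vehicle and 6741, 5812 and 5448 with E2. S100g, the calcium-binding protein calbindin-D9k, had 106, 143 and 113 and 4520, 3981 and 3923 (4.93 ± 0.23). The early-response transcription factor gene Fos had 42.04, 31.2 and 32.3 and 354, 228 and 289 (2.57 ± 0.29), and the cell cycle inhibitor gene Cdkn1a had 346, 99.7 and 149 and 890.4, 787 and 987 (2.24 ± 0.32). In all 4 genes the groups did not overlap, and the E2 rats of C3 and S100g were within a factor of 1.5 of each other. Igf1, the stromal growth factor, had 1508, 477 and 599.8 and 2065, 1836 and 1878, so vehicle rat 1 came close to the E2 rats. The rise of 1.33 ± 0.32 became 1.82 without that rat. The arginine deiminase genes Padi2 (2.05 ± 0.27) and Padi1 (1.63 ± 0.28), which modify proteins by citrullination, rose as well. Other members of the list went down: Vegfa (-0.79 ± 0.18), the survival gene Bcl2 (-1.60 ± 0.30), Stc1 (-1.75 ± 0.29), the water channel Aqp5 (-1.46 ± 0.27) and the receptor of leukemia inhibitory factor, Lifr (-1.55 ± 0.27), were lower. Ltf, the lactoferrin gene and a strong estradiol target in mouse, was dim with intensities of 25.5, 48.8 and 30.98 and 37.4, 39.1 and 37.9 and was not tested.

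Hedgehog signalling is a known route from epithelium to stroma, in which the epithelium releases Indian hedgehog (Ihh) and the stroma answers through Smo and the Gli factors. Several genes of this pathway were lower with estradiol. Gli1, both an effector and a target of the pathway, had intensities of 307, 275 and 242 in the vehicle rats and 45.4, 25.4 and 26.3 in the E2 rats. The groups were far apart, the E2 rats lay under the dim limit, and the difference was -2.61 ± 0.23 (adjusted p = 4.5e-07). Gli2 (-1.18 ± 0.32), the signal transducer Smo (-0.83 ± 0.25), the coreceptor Cdon (-1.09 ± 0.24) and Disp1, which releases hedgehog from cells (-0.97 ± 0.18), were lower too. These are 5 [3 to 6] of the 10 pathway genes tested, and 0 were higher, with 50% called. The ligand gene Ihh had 444, 337 and 285 and 305, 63.2 and 278: E2 rat 2 was low, E2 rat 1 lay among the vehicle rats, and the difference of -0.90 ± 0.37 was not called (adjusted p = 0.0982). Ptch1 and Hhip, the usual other targets, matched no probe set.

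Of 46 genes of bone morphogenetic protein, activin and TGF-beta signalling 5 were higher and 11 [8 to 17] lower, with 34.8% called. The ligand genes Bmp4 (-1.52 ± 0.38), Bmp7 (-1.54 ± 0.28) and Gdf10 (-1.85 ± 0.28) and the receptor gene Bmpr1b (-1.70 ± 0.18, adjusted p = 4.63e-06) were lower. The Id genes, which are standard targets of these ligands and block differentiation factors, fell together. Id3 had 887, 342 and 308 with vehicle and 111, 106 and 107 with E2 (-1.93 ± 0.30), Id2 had 1557, 808 and 661 and 316, 292 and 289 (-1.61 ± 0.26), and Id1 had 587, 245 and 393 and 139.5, 133 and 159 (-1.33 ± 0.24). All 3 E2 rats were below all 3 vehicle rats in each. The antagonists Grem1 (1.73 ± 0.33) and Chrdl1 (1.17 ± 0.27) and the activin subunit gene Inhba (1.23 ± 0.25) were higher. Ltbp2, a matrix protein of the family that stores latent TGF-beta, had 33.7, 64.8 and 36.8 and 439.8, 389 and 418, a rise of 2.85 ± 0.26 (adjusted p = 7.37e-07).

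Notch and Wnt genes were called at 23.8% and 25%, against 18.1% over all genes. All of these calls were lower, for which the share over all genes was 9.44%. Fibroblast growth factor genes were called in both directions, at 25%. Of 21 Notch pathway genes 5 [1 to 8] were lower and 0 higher, namely the receptors Notch1 (-0.79 ± 0.19), Notch2 (-0.89 ± 0.25) and Notch3 (-0.63 ± 0.19), the vascular ligand Dll4 (-1.23 ± 0.24) and the target Heyl (-1.06 ± 0.30), with 23.8% called. Of 20 Wnt ligand and Frizzled receptor genes 5 [3 to 6] were lower and 0 [0 to 1] higher, with Wnt2b (-1.13 ± 0.18) and the receptors Fzd1, Fzd2 and Fzd4 (-1.02, -1.02 and -1.01) beside Wnt2 (-1.55 ± 0.21), with 25% called. Among 16 fibroblast growth factor genes Fgf9 (-1.30 ± 0.26), Fgf18 (-0.77 ± 0.19) and the epithelial receptor Fgfr2 (-0.71 ± 0.20) were lower, and the intracellular family member Fgf13 was higher (1.66 ± 0.29).

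Genes that handle vitamin A moved in both directions. In cells retinol is bound by carrier proteins, stored as esters by Lrat, or oxidised in a pair of steps to retinoic acid, the ligand of the retinoic acid receptors. Rbp2, the cellular retinol-binding protein of the intestine, had intensities of 48.3, 55.4 and 58.8 with vehicle and 2496, 2010 and 2770 with E2. Lrat had 21.3, 50.5 and 43.4 and 509, 460.2 and 464. Dhrs9, which oxidises retinol to retinal, had 104, 70.3 and 41.1 and 1917, 1397 and 1277. All vehicle rats were dim or near the dim limit in these genes and all E2 rats well above it, with differences of 5.11 ± 0.25, 3.22 ± 0.30 and 4.18 ± 0.36. Crabp2, which carries retinoic acid to its receptors, rose from 223, 189 and 141 to 1032, 949 and 872 (2.29 ± 0.35). The retinoic acid-induced gene Rarres1 (1.52 ± 0.23) and the alcohol dehydrogenase gene Adh1c (1.22 ± 0.33) were higher as well. Aldh1a1, a retinal dehydrogenase, went the other way, from 687, 361 and 434 to 62.1, 39.96 and 54.7 (-2.86 ± 0.24). Dhrs3, which turns retinal back into retinol, fell by 1.59, the plasma carrier gene Rbp4 by 1.70 and the uptake receptor gene Stra6 by 1.02. Aldh1a2, the retinal dehydrogenase of stroma, differed by 0.90 ± 0.32 and was not called (adjusted p = 0.0623). It was at 1.20 and called without vehicle rat 1. In all 6 of 22 genes were higher and 4 lower, with 45.5% called.

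**Figure D3:**
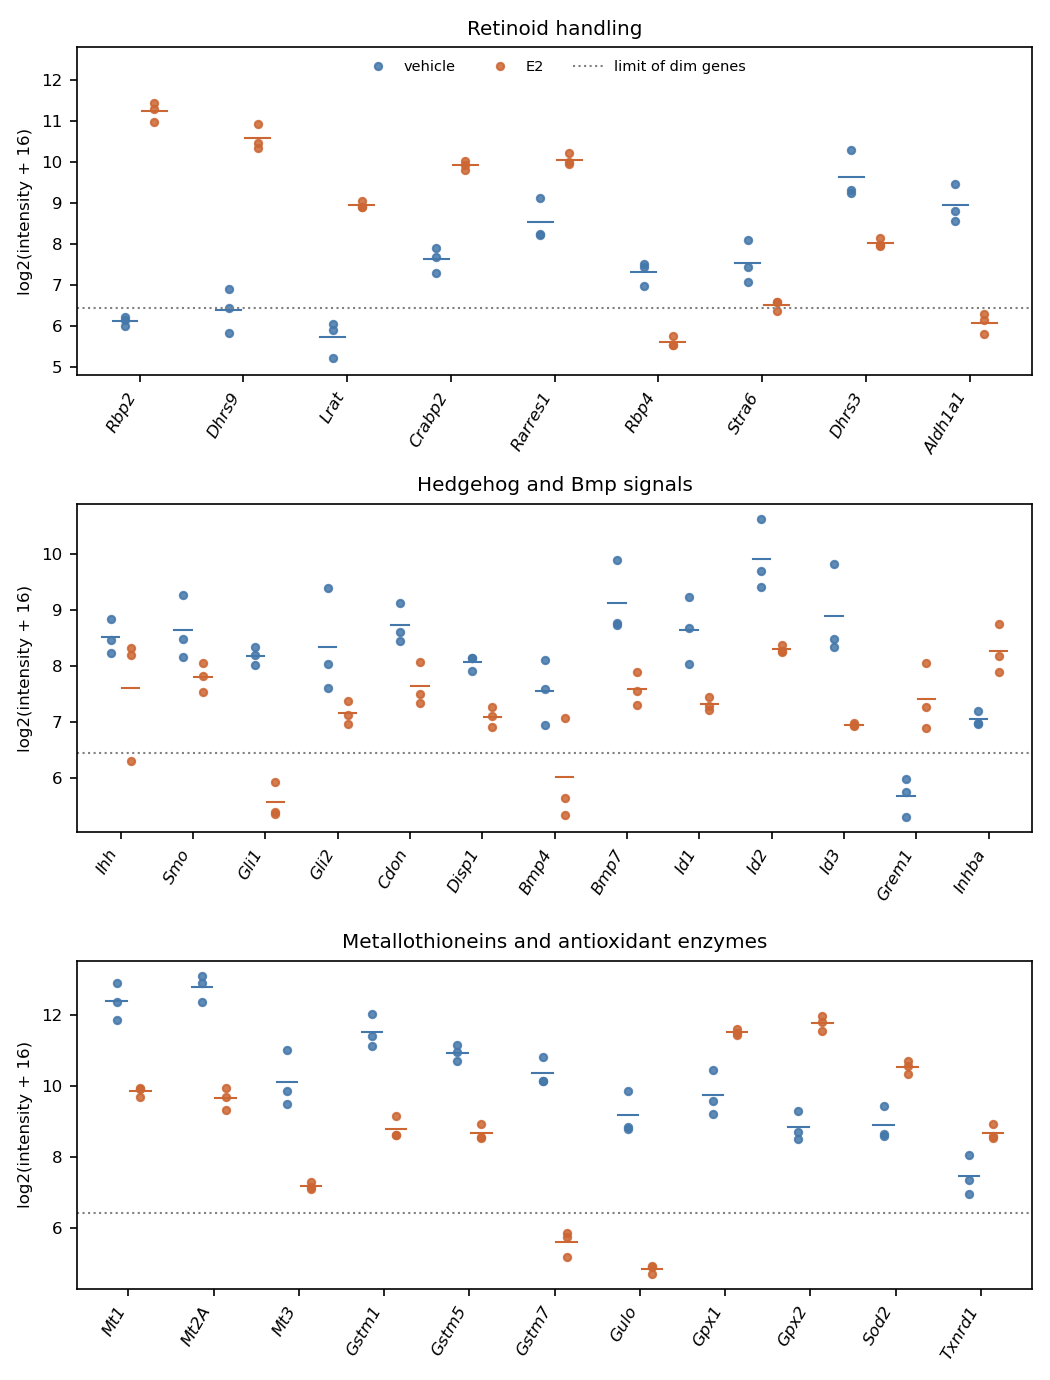
Log2(intensity + 16) in single rats for genes of retinoid handling, of hedgehog and Bmp signalling, and of metal binding and antioxidant defence. Points are rats, short lines are means of 3 rats and the dotted line is the dim limit of 6.44. Rbp2, Dhrs9, Lrat, Gpx1, Gpx2 and Sod2 were higher with E2, and Gli1, the Id genes, the metallothionein genes and the Gstm genes were lower.

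The metallothionein genes fell together. Metallothioneins are small cysteine-rich proteins that bind zinc and copper, and their genes are known to be switched on by the zinc sensor Mtf1 at metal response elements. Mt1, Mt2A and Mt3 lie near each other on chromosome 19 (assembly GRCr8), on the minus strand. Their promoters, from RefSeq, are shown because the 3 genes moved together. Capitals mark the metal response element, searched on both strands in the forms TGCGC or TGCAC followed by any base and C.
Mt1, chr19:10832976-10833135: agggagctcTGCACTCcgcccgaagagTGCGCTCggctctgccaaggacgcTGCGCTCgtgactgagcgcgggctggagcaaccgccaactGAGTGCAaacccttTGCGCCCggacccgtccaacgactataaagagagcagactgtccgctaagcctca
Mt2A, chr19:10838709-10838888: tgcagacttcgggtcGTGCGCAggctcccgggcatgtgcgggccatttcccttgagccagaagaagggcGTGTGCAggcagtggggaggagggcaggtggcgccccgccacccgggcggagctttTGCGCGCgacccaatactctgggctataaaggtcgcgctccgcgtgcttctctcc
Mt3, chr19:10856081-10856180: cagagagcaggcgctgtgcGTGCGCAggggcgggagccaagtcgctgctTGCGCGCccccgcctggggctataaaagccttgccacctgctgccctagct
Mt1 holds 5 copies in the 160 bases before its start, Mt2A 3 in 180 and Mt3 2 in 100. In windows of 250 bases before to 50 after the start, the first form alone is found in 25.8% of promoters of genes called lower, 20.4% of those called higher, 26.8% of those not called and 15.0% of all 27457 promoters of the table. The second form is found in 14.5%, 12.3%, 13.7% and 12.2% of the same sets. A match to these letters is no proof of a site.

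With these sequences in view, Mt1 had intensities of 7711, 3716 and 5285 in the vehicle rats and 982, 806 and 956 in the E2 rats. Mt2A had 8819, 5258 and 7628 and 969, 627 and 819.6, and Mt3, the form best known from brain, had 2068, 705 and 912 and 142, 123 and 128. All 6 group means were above the dim limit, Mt3 with E2 nearest to it, and no groups overlapped. The falls were 5.77-fold for Mt1, 8.76-fold for Mt2A and 7.61-fold for Mt3 (adjusted p = 1.07e-06, 2.75e-07 and 1.6e-06). Metallothionein messages are alike in sequence, so the 3 probe sets may in part read the same transcripts. The zinc importer genes Slc39a10 (-1.57 ± 0.22) and Slc39a8 (-1.11 ± 0.18) were lower too. The exporter of the secretory pathway Slc30a7 (0.78 ± 0.19), the copper importer Slc31a1 (0.98 ± 0.24), the iron importer Slc11a2 (0.76 ± 0.23) and the iron-scavenging lipocalin Lcn2 (3.62 ± 0.40) were higher. Of 35 genes of metal handling 4 [3 to 12] were higher and 6 lower, with 28.6% called.

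Antioxidant enzymes were called in both directions, largely by family. Glutathione transferases couple foreign or oxidised molecules to glutathione, whereas glutathione peroxidases, thioredoxins and superoxide dismutases remove peroxide and superoxide. Gstm1 had intensities of 4196, 2244 and 2706 with vehicle and 554, 379 and 378 with E2, and Gstm5 had 2284, 1997 and 1643 and 474, 355 and 367. Gstm7 had 1806, 1125 and 1112 and 42.4, 38.2 and 20.7. In each gene the E2 rats were well below all vehicle rats, with differences of -2.73 ± 0.24, -2.26 ± 0.21 and -4.77 ± 0.40. Gstm2 (-1.83 ± 0.29), Gstm4 (-0.87 ± 0.19), Gsta4 (-1.09 ± 0.21), Gsta1 (-0.95 ± 0.24), Gstt2 (-1.02 ± 0.22) and the membrane enzyme Mgst1 (-1.64 ± 0.46) were lower too, though probe sets of such close relatives may share transcripts. Gulo, which completes vitamin C synthesis in rats, was lower by 4.32. The enzymes that were higher included Gpx2 (619, 349.6 and 400.2 to 4017, 2984 and 3569, 2.94 ± 0.27), Gpx1 (1.76 ± 0.31), Gpx7 (1.55 ± 0.28), Sod2 (1.65 ± 0.29), Txnrd1 (1.23 ± 0.26), Gsr (1.16 ± 0.24) and Prdx1 (1.14 ± 0.27). Over the list of 44 genes the counts were 10 [8 to 19] higher and 10 lower, with 45.5% called.

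Proteins of mucosal defence were called in 1 direction. Of 18 antimicrobial genes tested 11 [7 to 13] were higher and 0 [0 to 1] lower, a share of 61.1% against 18.1% over all genes, with a median difference of 1.07 (-0.11 over all genes). Reg3b, an antibacterial lectin, had intensities of 15.5, 12.9 and 14.1 with vehicle and 604, 597 and 855 with E2, and Lcn2 had 343, 79.03 and 91.00 and 2311, 1548 and 1863. Slpi, an inhibitor of leukocyte elastase, had 277, 169.7 and 124 and 2853, 2851 and 2778. The E2 rats exceeded every vehicle rat in all 3 genes. S100a9 (2.73 ± 0.38) and S100a8 (1.95 ± 0.49), which form calprotectin, and the lysozyme gene Lyz2 (1.22 ± 0.34) also rose. Another 13 genes of the list were dim and not tested, so the count covers only genes bright enough to pass. A gene that passed through its E2 level alone had to differ, as Reg3g, Reg3b and Lpo did.

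In the lists of epithelial glycoproteins, protease inhibitors and proteases more genes were called higher than lower. Of 16 mucin-type genes 7 [4 to 8] rose, with the membrane mucin gene Muc20 at 2.07 ± 0.27, the mucin-folding gene Agr2 at 1.52 ± 0.24 and Cd24 at 1.36 ± 0.24, with 56.2% called. Those that fell were 2 [1 to 2], Emcn (-1.01 ± 0.18) and Podxl (-0.65 ± 0.22), which are known from endothelium. Enzymes that build sugar chains rose too: Galnt3, which begins O-linked chains, had 31.97, 31.5 and 28.8 with vehicle and 665, 497 and 563 with E2 (3.65 ± 0.21). B3gnt3 (3.49 ± 0.26) and Fut9 (2.35 ± 0.23), which extend and fucosylate chains, rose, and St6galnac2 (-1.37 ± 0.24) and Mgat4a (-1.24 ± 0.21) fell. Of 53 glycosyltransferase genes 11 [7 to 23] were higher and 5 [2 to 6] lower, with 30.2% called.

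Among 26 protease inhibitors 9 [9 to 16] rose and 2 [0 to 3] fell, with 42.3% called. Serpinb5, known as maspin, had 19.8, 16.6 and 14.7 with vehicle and 650, 525 and 625 with E2, and Serpina1, the alpha-1 antitrypsin gene, had 21.8, 24.9 and 12.2 and 520, 434 and 527. Both were dim in every vehicle rat, and counted from the dim limit they rose 7.06-fold and 5.84-fold. They were dim with 3-MC alone too, so they passed the filter through their levels with E2 and had to differ. Serpinb1a (3.18 ± 0.25) and the metalloproteinase inhibitor Timp1 (2.80 ± 0.25) rose, while Timp3 (-0.94 ± 0.26) and Timp4 (-0.68 ± 0.22) fell. Of 30 serine protease genes 7 [6 to 12] rose, among them Htra4 (2.46 ± 0.29), Tmprss4 (1.70 ± 0.18), the proprotein convertase Pcsk6 (1.70 ± 0.27) and the epithelial protease St14 (1.17 ± 0.28), with 26.7% called. The fall, 1 [1 to 2], was Prss23 (-1.35 ± 0.23). In the metalloproteinases 6 of 22 rose, most of them ADAMTS genes such as Adamts3 (1.70 ± 0.33) and Adamts12 (1.09 ± 0.24). The falls, 3 [0 to 4], were Mmp11 (-1.37 ± 0.34), Mmp15 (-0.99 ± 0.24) and Mmp9 (-0.75 ± 0.22), with 40.9% of the list called.

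Carriers of fatty acids, amino acids, lactate and ions were among the strongly raised membrane genes. Slc27a6, a fatty acid transporter, had intensities of 18.8, 15.7 and 15.7 with vehicle and 926, 623 and 629.6 with E2. Slc6a14, a broad importer of amino acids, had 34.4, 41.8 and 26.6 and 1356, 927 and 1018, and Slc16a14, a relative of lactate carriers, had 31.2, 25.8 and 23.3 and 875, 558 and 735. No group overlapped, and the rises were 4.48 ± 0.35, 4.47 ± 0.30 and 4.09 ± 0.32. The sodium-proton exchanger Slc9a4 (3.22 ± 0.33), the urea channel Slc14a1 (2.61 ± 0.31), the phosphate carrier Slc34a2 (2.30 ± 0.30) and the choline carrier Slc44a4 (2.02 ± 0.20) rose as well. The glutamate carrier Slc1a3 (-1.99 ± 0.28), the anion exchanger Slc26a7 (-2.03 ± 0.32), the mitochondrial carrier Slc25a23 (-1.67 ± 0.25) and the peptide carrier Slc15a2 (-1.53 ± 0.25) fell. Of 196 carrier genes 26 [21 to 58] were higher and 22 [8 to 30] lower, 24.5% against 18.1% over all genes.

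Among calcium channels the epithelial entry channel rose and voltage-gated ones fell. Trpv6, the entry channel of absorbing epithelia, rose from 144, 131 and 76.96 to 551, 443 and 459 (1.94 ± 0.25). S100g, which binds calcium inside cells, rose too, and in whole uterus it cannot be told whether the cells were the same. Voltage-gated calcium channels were lower in 4 [2 to 4] of 13 genes tested and higher in 0 [0 to 1], with 30.8% called. Cacna1d, the pore of an L-type channel, fell from 440.4, 541 and 401 to 98.9, 54.4 and 56.8 (-2.50 ± 0.23), and the calcium pump gene Atp2b2 fell by 2.05. Potassium channel genes were called in both directions, 6 higher and 10 lower of 47, with 34% called. Kcna2 (-2.75 ± 0.25), Kcnb2 (-1.66 ± 0.22), Kcnn3 (-1.55 ± 0.29) and Kcnma1 (-1.07 ± 0.23), the latter known for quieting uterine muscle, fell. Kcnf1 (2.10 ± 0.35) and Kcnt2 (1.85 ± 0.21) rose. Of 28 ABC transporters 5 fell and 2 [0 to 4] rose, with the drug efflux pumps Abcb1a (-1.41 ± 0.21) and Abcb1b (-1.26 ± 0.25) and the cholesterol exporter Abca1 (-1.08 ± 0.21) among those that fell, with 25% called.

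Genes of sugar use were called in both directions. Slc16a3, which exports lactate, had intensities of 60.9, 60.98 and 41.2 with vehicle and 344, 407 and 419 with E2 (2.54 ± 0.19, adjusted p = 7.84e-08). The glucose importer Slc2a1 (1.20 ± 0.25), the enzymes Pfkp (1.17 ± 0.25), Pgk1 (0.99 ± 0.27), Aldoa (0.72 ± 0.23) and Pkm (0.96 ± 0.31), and Ldha, which makes lactate (1.30 ± 0.29), rose. Aldoc (-1.25 ± 0.38), Ldhb (-0.77 ± 0.26), the lactate importer Slc16a7 (-1.17 ± 0.20), Pdk4 (-0.92 ± 0.29) and Pck1 (-0.92 ± 0.29) fell. Ldha and Ldhb are the alternative subunits of lactate dehydrogenase, and they moved in opposite directions. In all 9 [5 to 17] of 36 genes were higher and 5 [1 to 6] lower, with 38.9% called. Of the 21 genes of glycogen and the pentose phosphate pathway only the glycogen phosphorylase gene Pygl was called (1.02 ± 0.31), while 12 were called higher without vehicle rat 1.

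In lipid metabolism single genes moved far and in both directions. Them5, an acyl-CoA thioesterase with the largest fall by log2 difference, had 1864, 1055 and 972 with vehicle and 8.03, 4.69 and 12.4 with E2. The E2 rats were at the floor of the scale, so that counted from the dim limit the fall was 14.5-fold, less than the 15.3-fold of Gstm7. Ehhadh, an enzyme of peroxisomal fatty acid oxidation, rose from 132, 77.5 and 58.6 to 839, 706 and 766 (2.96 ± 0.25), and the ketone body enzyme Bdh1 rose by 1.12 ± 0.23. Ppargc1a, the coactivator that drives mitochondrial gene expression, fell from 337, 227 and 200.4 to 55.1, 43.9 and 35.7 (-2.13 ± 0.22), and its relative Ppargc1b by 0.78. The mitochondrial enzymes Acaa2 (-1.11 ± 0.24) and Eci1 (-1.04 ± 0.24) fell too. Counts were 3 [2 to 8] higher and 5 lower of 32 genes of fatty acid oxidation, with 25% called. They were 1 [1 to 5] higher and 5 [3 to 11] lower of 28 of fatty acid synthesis, Scd and Thrsp among them, with 21.4% called. Both shares were not far above the 18.1% over all genes.

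Enzymes that activate or inactivate steroids were called in both directions. Hsd11b2, which inactivates corticosterone, had 241, 123 and 126 with vehicle and 1715, 1449 and 1391 with E2 (3.16 ± 0.34), and Hsd11b1, which regenerates it, rose by 0.98 ± 0.30. Sult1a1, a sulfotransferase of phenols and estrogens, fell from 656, 392 and 387 to 117, 93.6 and 106 (-1.99 ± 0.22), while its relative Sult1d1 rose from 97.9, 91.4 and 68.2 to 640, 218 and 384 (1.96 ± 0.29). The groups were separate in both sulfotransferase genes. The steroid sulfatase gene Sts (-0.63 ± 0.20), the cholesterol transport gene Star (-0.77 ± 0.22) and Hsd17b6 (-1.08 ± 0.21) fell. The list had 4 [3 to 7] of 18 higher and 4 [2 to 6] lower, with 44.4% called.

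Machinery for making and exporting proteins was called at shares that rested on vehicle rat 1. In the entry of proteins into the endoplasmic reticulum and their first glycosylation, 11 [4 to 26] of 46 genes were higher and 1 [0 to 1] lower, with a median of 0.30, with 26.1% called. Ssr4 (1.41 ± 0.32), Sec61b (1.15 ± 0.29) and Sec61a1 (1.07 ± 0.31), parts of the translocation pore and its partner complex, Rpn2 (1.15 ± 0.30) and Ddost (1.07 ± 0.28) of the oligosaccharide transferase, and the sugar enzyme Pmm2 (1.10 ± 0.23) rose. For vesicle traffic between this compartment and the Golgi 3 [0 to 32] of 45 rose (6.67% called, under the share over all genes), led by the factor Creb3l1 (1.27 ± 0.36), at a list median of 0.46. The lists had 26 and 32 genes higher without vehicle rat 1, and 22 and 26 after quantile normalization. The mean log2 level over the traffic list was 9.37, 8.49 and 8.30 in the vehicle rats and 9.31, 8.93 and 9.08 in the E2 rats. Vehicle rat 1 lay above the other vehicle rats and all E2 rats. Regulators of the unfolded protein response were higher in 4 [2 to 14] of 26 and lower in 1, with 19.2% called. Manf (1.10 ± 0.32), Sdf2l1 (0.81 ± 0.20) and Nupr1 (1.33 ± 0.26) rose, while Ddit3, the death-promoting factor of that response, fell (-1.0 ± 0.21).

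Ribosomal, respiratory and proteasome genes were called at shares under the 18.1% over all genes. By limma 0 of 68 cytosolic ribosomal protein genes were called, with 0 at an unadjusted p under 0.05 and differences from -0.20 to 0.29. The mitochondrial ribosomal genes had 0 called of 68, 3 at an unadjusted p under 0.05 and differences from -0.52 to 0.63. Without vehicle rat 1 7 and 26 of them were called higher and 0 and 0 lower, where 34.9% of all genes were called. After quantile normalization the cytosolic genes had 0 higher and 1 lower, and the mitochondrial ones 9 higher and 0 lower. The 26 subunit genes of respiratory complexes II to IV had 0 called by limma, 6 at an unadjusted p under 0.05, and 17 higher and 1 lower without vehicle rat 1. Complex I had 1 [0 to 14] of 33 higher and 0 lower, Ndufa1 (0.76 ± 0.22), with 3.03% called. ATP synthase had 1 [0 to 11] of 16 higher and 0 lower, Atp5mc1 (0.62 ± 0.18), with 6.25% called. Of 43 proteasome genes 6 [2 to 29] rose and 0 fell, with 14% called, where 8.7% of all genes were called higher. The rises included the immune subunits Psmb10 (1.09 ± 0.25), Psmb9 (1.03 ± 0.22) and Psmb8 (1.01 ± 0.26). Each of these counts of rises was highest without vehicle rat 1.

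Matrix and adhesion genes changed in single members of large families. Col6a4 had intensities of 523, 275 and 212 with vehicle and 2792, 1817 and 2145 with E2 (2.76 ± 0.27), and the fibrillar collagen genes Col1a1 (1.48 ± 0.24) and Col1a2 (1.08 ± 0.25) rose. These were the rises, 3 [3 to 6] of 24 collagen genes tested, and Col17a1 (-0.65 ± 0.19) was the fall, 1 [0 to 3], with 16.7% called. Of 21 integrin genes 5 [3 to 11] rose and 0 [0 to 2] fell, with the epithelial subunit Itgb6 going from 57.96, 48.1 and 55.6 to 514, 305 and 361 (2.52 ± 0.26) and the collagen receptor subunit Itga2 at 1.85 ± 0.24, with 23.8% called. The laminin chains Lamb3 (1.96 ± 0.29) and Lama5 (0.76 ± 0.19) of epithelial basement membrane rose and Lamc3 (-1.31 ± 0.25) fell. Vcan, a hyaluronan-binding proteoglycan of swelling tissue, rose from 271, 162 and 108 to 1206, 621 and 691 (2.15 ± 0.33), and the syndecan Sdc1 rose (1.51 ± 0.25) where Sdc4 fell (-0.75 ± 0.25). Gpc3, a glypican that restrains growth factors, fell from 1058, 401 and 303 to 106, 72.9 and 85.5 (-2.34 ± 0.39). The crosslinking enzyme Tgm2 rose (2.19 ± 0.29) and the elastic fibre protein gene Efemp1 fell (-2.33 ± 0.27).

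Keratin genes of simple epithelium rose, and junction genes were called in both directions. Krt8 had 638, 287 and 289 with vehicle and 3091, 2874 and 2988 with E2 (2.93 ± 0.38), Krt7 and Krt18, keratins of the same simple epithelia, rose by 2.03 and 1.12, Krt85, a keratin of hair, by 1.63 and Krt15, a keratin of basal cells, by 0.99. Krt10 (-0.63 ± 0.20) and Krt13 (-0.64 ± 0.21) of stratified epithelia fell, both from levels close to the dim limit. Of 18 keratin genes tested 6 were higher and 2 [0 to 2] lower, with 44.4% called. The tight junction gene Cldn7 rose (1.72 ± 0.28), while Cldn5 (-1.12 ± 0.26) of endothelium and Cldn16 (-1.69 ± 0.27) fell. Of 14 claudin genes tested 1 was higher and 2 [2 to 4] lower, with 21.4% called. Cadherins were lower in 3 [2 to 6] of 16 genes and higher in 0 [0 to 2], with Cdh2 (-0.94 ± 0.23), Cdh5 (-1.02 ± 0.23) and Cdh16 (-1.26 ± 0.24) as the falls, with 18.8% called.

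Genes for and against cell death were called in both directions. Birc3, an inhibitor of apoptosis, had intensities of 77.2, 52.3 and 36.2 with vehicle and 352, 242 and 226 with E2 (2.04 ± 0.30), and Bcl2a1, a survival gene of leukocytes, rose by 1.44 ± 0.27. The death-promoting genes Bak1 (1.02 ± 0.25), Casp8 (1.10 ± 0.22), Apaf1 (1.05 ± 0.21), Bik (0.81 ± 0.21) and Bmf (0.81 ± 0.23) rose as well, and Bcl2 and the death ligand Tnfsf10 (-1.20 ± 0.27) fell. Of 32 genes of cell death and survival 8 [6 to 14] were higher and 2 lower, with 31.2% called. Cell cycle inhibitors moved in both directions: Cdkn1a and Gadd45g (1.48 ± 0.23) rose, and Cdkn1b (-0.76 ± 0.23) and Cdkn1c (-1.31 ± 0.35), which hold resting cells, fell. Of 29 genes of cell cycle inhibition and quiescence 3 [2 to 8] were higher and 4 [0 to 5] lower, with 24.1% called. Mycn, a growth-promoting factor, rose from 42.3, 41.4 and 28.6 to 293, 196 and 182 (2.15 ± 0.21), and the cyclin gene Ccnd2 fell (-1.07 ± 0.29). With the nucleotide enzyme Ctps1 (0.82 ± 0.25) as the other rise, 2 [1 to 8] of 26 genes of G1 and growth were higher and 1 [0 to 2] lower, with 11.5% called.

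Members of developmental transcription factor families were called at 17.6% (Fox) to 37.5% (Tbx, Gata and Hand), nearly all lower. Over all genes 18.1% were called, with 9.44% lower. Klf4, a factor of differentiated epithelium, rose from 330.2, 115 and 146 to 659.7, 533 and 547 (1.61 ± 0.30) and was the only called rise among the Krüppel-like, Hox, Fox, Sox, and Tbx, Gata and Hand families as searched here. Of 16 Hox genes 4 [2 to 7] fell, Hoxd9 (-1.07 ± 0.20), Hoxd10 (-0.91 ± 0.20), Hoxc4 (-0.88 ± 0.24) and Hoxa7 (-0.68 ± 0.17), with 25% called. Klf9 (-0.86 ± 0.24), a partner of the progesterone receptor, and Klf2 (-0.85 ± 0.21) of endothelium fell, as did Klf15 (-1.15 ± 0.24) and Sp4 (-1.0 ± 0.22). The Sox genes Sox5, Sox10 and Sox18 fell by 0.79, 0.50 and 0.80, and Foxp1 and Foxj2 by 0.76 and 0.84. Falls were 4 [2 to 7] of 20 Krüppel-like genes and 3 [2 to 7] of 8 Tbx, Gata and Hand genes. They were 3 [0 to 5] of 17 Fox genes and 3 [0 to 3] of 10 Sox genes. All Fox falls, and all Sox falls, can thus lose their call when 1 rat is left out. The epithelial homeobox gene Msx1, which is known to keep the epithelium immature, fell from 993, 534 and 711 to 368, 332 and 305 (-1.08 ± 0.21).

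Nerve and vessel genes were called lower more often than higher, and prostaglandin genes were called in both directions. Gfra2, a receptor for the neurotrophic factor neurturin, had intensities of 807, 316 and 308 with vehicle and 74.2, 39.3 and 49.9 with E2 (-2.69 ± 0.29). The neurotrophin Ntf3 (-1.08 ± 0.18), its receptor Ntrk3 (-1.02 ± 0.19) and Ret (-0.60 ± 0.19), the partner of Gfra2, fell, and Ngfr (1.24 ± 0.22) and the semaphorin Sema4a (1.51 ± 0.27) rose. Estradiol is known to prune the sympathetic nerves of the rodent uterus. The list had 2 [2 to 8] of 37 genes higher and 9 [4 to 12] lower, with 29.7% called. For angiogenic ligands and receptors the counts were 2 [1 to 6] higher and 10 [6 to 15] lower of 37, with 32.4% called. Those lower included the ligand genes Vegfb (-0.82 ± 0.21), Angpt1 (-0.82 ± 0.19) and Pdgfc (-1.13 ± 0.24) and the receptors Kdr (-1.01 ± 0.23), Flt1 (-0.75 ± 0.21), Tek (-0.80 ± 0.22) and Tie1 (-0.93 ± 0.20). The vasoactive peptides Adm (1.02 ± 0.19) and Edn1 (0.66 ± 0.22) rose. In prostaglandin handling the synthase Ptgs1 (-1.27 ± 0.28) and the receptor Ptger3 (-2.04 ± 0.26) fell, and the uptake carrier Slco2a1 (2.10 ± 0.34) and the reductase Akr1b8 (67.1, 66.03 and 45.8 to 594, 602 and 599, 3.03 ± 0.37) rose. Of 24 prostaglandin genes tested 4 [4 to 10] were higher and 4 lower, with 33.3% called.

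Cytokine and chemokine genes rose in part. Il1rn, the antagonist of interleukin 1, had intensities of 78.7, 32.5 and 26.99 with vehicle and 528, 381 and 408 with E2, and Cxcl17, a mucosal chemokine, had 144, 131 and 128 and 2120, 1224 and 1727. Ccl7, an attractant of monocytes, had 285, 153 and 108 and 1493, 929.7 and 1432. The E2 rats were above all vehicle rats in each, with differences of 2.95 ± 0.35, 3.47 ± 0.25 and 2.79 ± 0.30. Ccl21 (-1.55 ± 0.29), which draws lymphocytes to lymph vessels, and Ccl5 (-1.07 ± 0.25) fell. The list of 28 interleukin genes and receptors had 8 [4 to 10] higher and 1 [1 to 3] lower, with 32.1% called. The chemokine list of 23 had 8 [5 to 12] higher and 4 lower, with 52.2% called, against 18.1% over all genes.

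Marker lists of cell types differed in how many members were called, against 18.1% over all genes. Of 24 epithelial markers 14 were higher and 3 lower, with list means of 9.0, 8.16 and 8.07 in the vehicle rats and 9.55, 9.15 and 9.23 in the E2 rats, with 70.8% called. Elf3, an epithelial transcription factor, had 217, 83.2 and 101 and 1724, 1494 and 1557, and the surface gene Prom1 had 406, 226 and 243 and 2678, 1838 and 2283. The gland and stem cell genes Foxa2, Msx1 and Lgr5 (-1.63 ± 0.29) were the lower ones. Of 14 endothelial markers 10 [6 to 10] were lower and 0 higher, with list means of 8.98, 8.25 and 8.31 and 7.85, 7.70 and 7.78: every E2 rat was below every vehicle rat, with 71.4% called. Dll4, Notch1, Klf2 and the angiogenic receptors, which fell, are genes known from endothelium too, and the part of the endothelial share of the tissue in those falls was not tested. Macrophage markers were higher in 5 [4 to 12] of 12 and lower in 0, with 41.7% called. Without vehicle rat 1 12 were higher. Their list means were 8.88, 7.44 and 7.51 and 9.12, 8.50 and 8.80, so that vehicle rat 1 overlapped the E2 rats. Globin and nerve markers were lower in 5 [3 to 6] of 7, with means of 9.31, 8.18 and 8.50 and 7.50, 7.02 and 7.35, with 71.4% called. Smooth muscle markers had 2 [2 to 5] rises, Actg2 and Des, and 1 [0 to 1] fall, Pln, among 16, and stroma had 2 [2 to 4] and 1 [0 to 4] among 16, each with 18.8% called. Granulocyte and mast cell markers were higher in 4 [2 to 4] of 7, with the mast cell receptor gene Kit at 1.83 ± 0.27, and lower in 2 [0 to 2], the granule genes Mpo (-1.17 ± 0.34) and Cpa3 (-1.11 ± 0.28), with 85.7% called. Mesothelial markers were lower in 3 of 6, Gpm6a (-1.67 ± 0.23), Msln (-1.44 ± 0.35) and Wt1 (-1.08 ± 0.21), and Upk3bl1 rose (3.25 ± 0.28), with 66.7% called. Ciliated and stratified epithelium had 1 of 6 higher and 3 [1 to 4] lower, and skeletal muscle 1 and 1 [0 to 2] of 6. By limma 0 of 5 lymphocyte markers were called, with 1 at an unadjusted p under 0.05. The largest differences among them were Gzmb (-0.57 ± 0.24) and Cd27 (-0.49 ± 0.25).

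**Figure D4:**
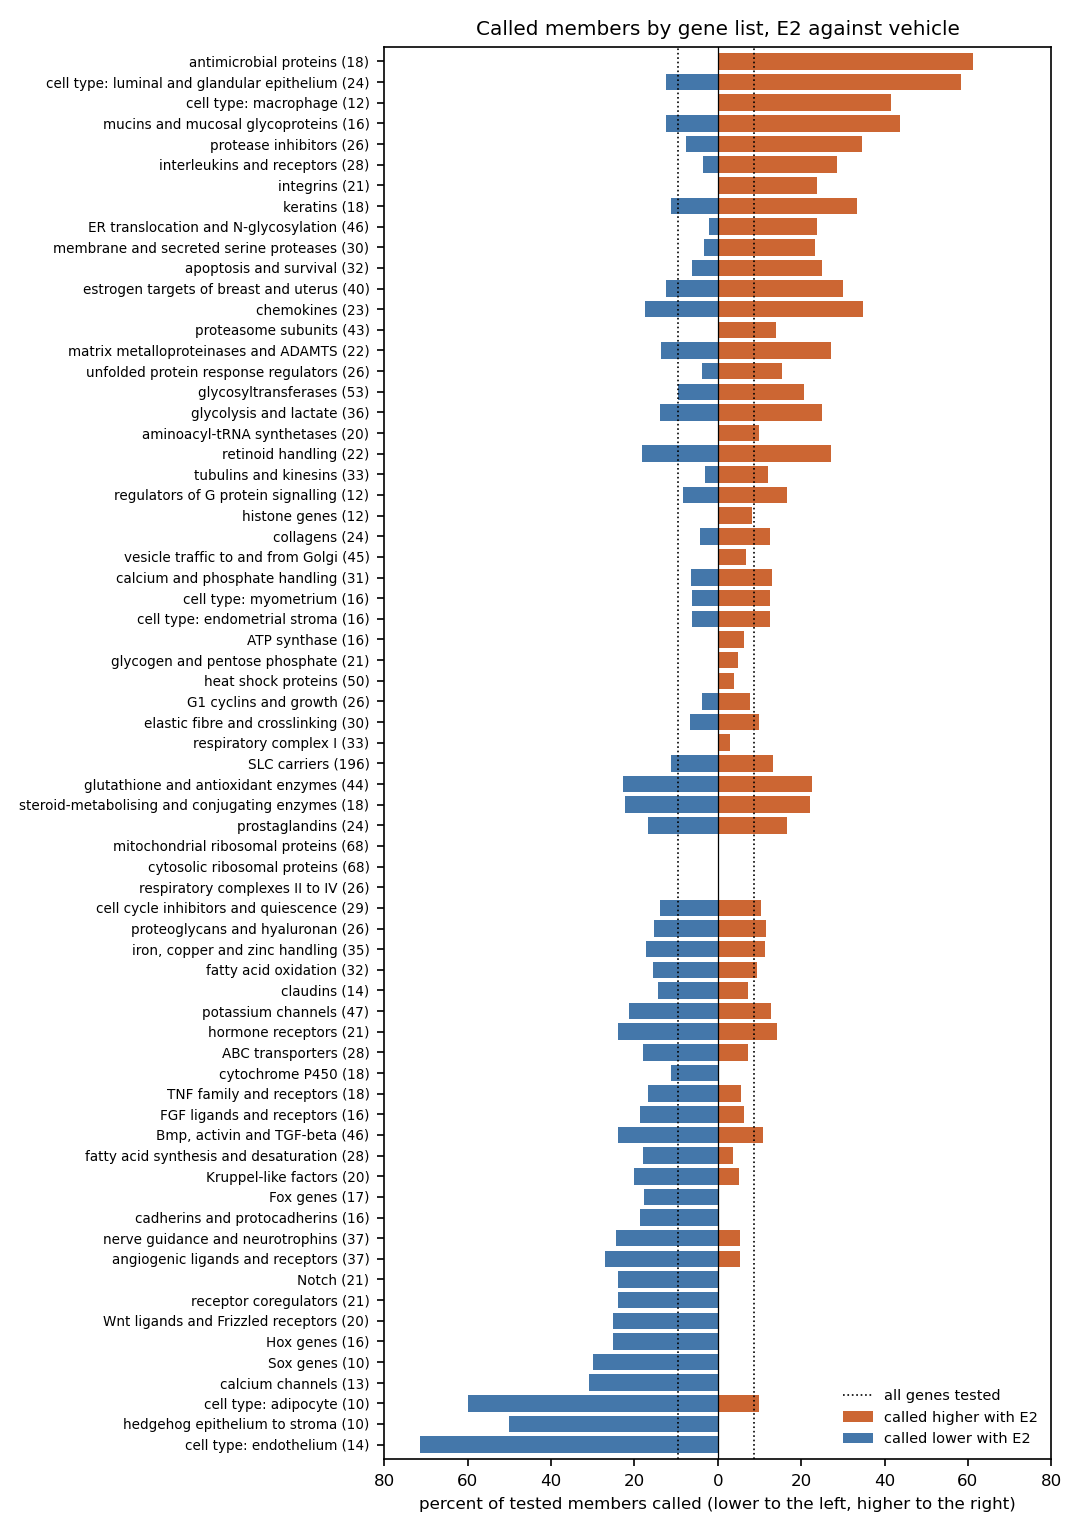
Share of tested members called higher (to the right) or lower (to the left) with E2 in lists and families with at least 10 tested members; the number tested follows each name. Dotted lines mark the shares over all genes, 8.7% higher and 9.44% lower. Antimicrobial, epithelial and macrophage genes lie far to the right, and endothelial, hedgehog and adipocyte genes far to the left.

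Promoter letters were compared between genes called higher, lower and not called, in the RefSeq windows of 250 bases before to 50 after the start that 8403 of the tested genes have. The full estrogen response element, GGTCA and TGACC with 3 bases between, was found in 0 of 702 genes called higher and 0 of 771 called lower. It was found in 0.0433% of 6930 genes not called and 0.0255% of all promoters. Its half-site AGGTCA was found in 15.0% of those called higher, 12.1% of those called lower, 11.9% of those not called and 15.7% of all. No match says only that these letters are not in this window. Among other motifs, TATAAA was found in 11.0%, 8.56%, 6.59% and 14.3% of the same 4 sets, CCAAT in 36.6%, 36.1%, 37.8% and 37.7%, and the sterol element TCACCCCAC in 0.712%, 0.389%, 0.361% and 0.495%. The endoplasmic reticulum stress element, CCAAT and CCACG with 9 bases between, was found in 0 genes called in either direction and 0.216% of those not called. The interferon-stimulated response element, GAAA and GAAAC with 2 bases between, had the highest ratio of the share in genes called higher to that in genes not called among the motifs searched. It was found in 22 of 702 genes called higher (3.13%), 3 of 771 called lower (0.389%), 0.649% of those not called and 0.863% of all promoters. The windows below belong to the 6 genes with the largest rises among those 22 and are shown for the place of that motif before their starts. No test was made of these shares. Capitals mark the motif or, on the other strand, its complement.
Fcgr3a, chr13:85782506-85782565: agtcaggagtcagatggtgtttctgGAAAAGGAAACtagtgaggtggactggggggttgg
Lgals9, chr10:64428071-64428130: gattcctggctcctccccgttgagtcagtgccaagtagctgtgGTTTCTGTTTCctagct
Epsti1, chr15:59693341-59693400: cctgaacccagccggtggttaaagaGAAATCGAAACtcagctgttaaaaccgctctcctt
Ifit3, chr1:241527256-241527315: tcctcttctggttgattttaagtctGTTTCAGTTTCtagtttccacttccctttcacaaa
Irf7, chr1:205800064-205800123: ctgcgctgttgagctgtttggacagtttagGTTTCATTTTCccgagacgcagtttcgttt
Oasl2, chr12:47383306-47383365: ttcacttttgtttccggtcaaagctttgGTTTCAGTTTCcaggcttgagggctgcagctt
Fcgr3a, Epsti1 and Ifit3 are on the plus strand and the other 3 genes on the minus strand of GRCr8, each written 5′ to 3′ along its gene.

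Of these 6 genes Fcgr3a, an antibody receptor of macrophages and killer cells, had intensities of 114, 45.6 and 31.01 with vehicle and 569.5, 358 and 377 with E2 (2.61 ± 0.31). Lgals9, a galectin that tempers T cells, had 727, 307 and 282 and 2028, 1515 and 1833 (2.11 ± 0.28), and the antiviral gene Epsti1 had 148, 75.7 and 86.1 and 614, 339.7 and 508 (2.08 ± 0.27). In these 3 genes each E2 rat was above each vehicle rat. Ifit3 and Oasl2 are antiviral effectors and Irf7 is the factor that amplifies interferon. The rise was 2.08 ± 0.30 for Ifit3, 1.83 ± 0.30 for Irf7 and 1.82 ± 0.27 for Oasl2. The remaining genes with the motif include Eif2ak2, Oas1a, Oas1b, Ifi27, Isg20, Dtx3l and Cxcl10, with rises of 1.18, 0.98, 1.04, 1.15, 0.81, 1.08 and 0.94. In these bulk samples the macrophage markers given above rose beside them, and their part in this was not tested.

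The 6 rats given 3-MC offer a second comparison with and without E2 that shares no array with the first. In E2+3-MC minus 3-MC 834 genes were called (8.21%). Of the 1842 genes called without 3-MC 1801 had the same sign there (97.8%, against 75.6% over all genes tested) and 740 were also called with that sign, which is 40.2% of the 1842 and 88.7% of the 834. By direction 882 of 883 higher genes and 919 of 959 lower genes kept their sign, and 0 genes were called in opposite directions. Fam3d rose by 5.52 there against 5.89 without 3-MC, Gjb2 by 4.90 against 5.05, and Plet1 by 3.64 against 3.71. Other genes differed more: Olfm4 was at 3.96 against 6.08 and Slpi-ps1 at 3.52 against 5.85. These 2 genes were uneven between the E2+3-MC rats, with intensities of 592, 84.2 and 1355 for Olfm4 and 420, 31.3 and 2323 for Slpi-ps1. In both, rat 2 was lowest and rat 3 lay within the range of the E2 rats. The fall of Gli1 was -2.12 there against -2.61, that of Mt2A -1.58 against -3.13 and that of Gstm7 -2.73 against -4.77. The difference between the 2 sets of rats was tested as an interaction, in which limma called 0 genes, with 298 at an unadjusted p under 0.05.

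The interaction p-values were smallest for Ctnnd2, Dnajc14, Arg2, Mt2A and Efemp1, each with an adjusted p of 0.977. Ctnnd2, a catenin of nerve junctions, fell by 1.95 without 3-MC and was at -0.83 with it. Arg2, the mitochondrial arginase, was at -2.49 without and -0.50 with 3-MC, and Efemp1 at -2.33 and -0.81. Dnajc14, a chaperone partner, was at 0.69 and -0.37. The interaction has a larger error than either comparison, so these values do not show that the responses were alike.

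**Figure D5:**
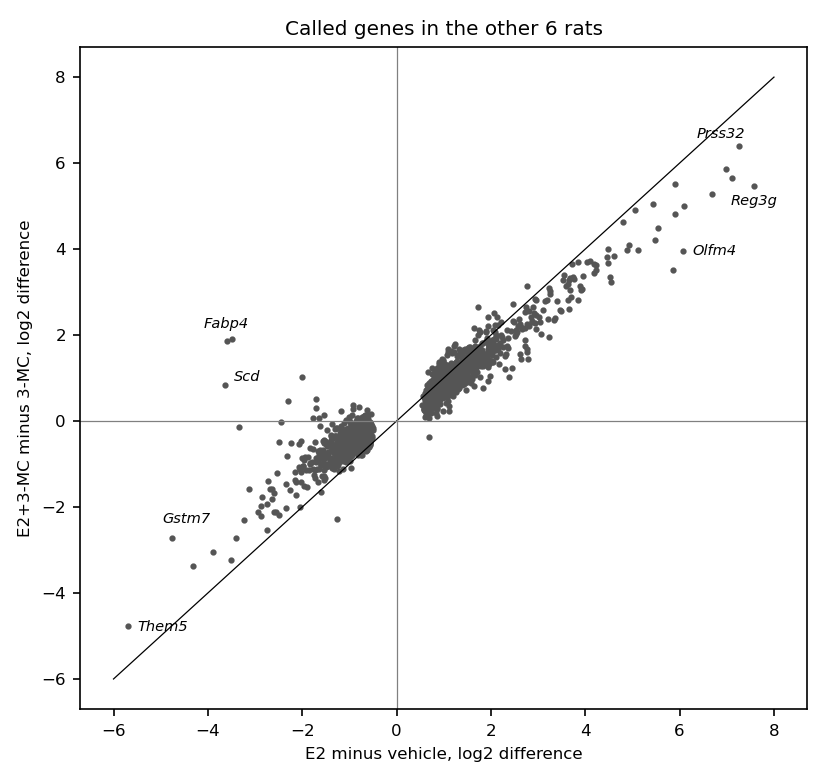
Log2 differences of the 1842 called genes in the rats without 3-MC (horizontal) and in the rats given 3-MC (vertical), 1 point per gene, with the line of equal differences. Most points lie to the lower left or upper right of the origin (1801 of 1842); Scd and Fabp4 lie above 0 on the vertical axis.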

How the data were processed

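Total RNA of 1 uterus per rat was made into biotinylated cRNA and hybridised to 1 Affymetrix array, per the labels' protocols. Per the submitters' processing notes, the authors used Affymetrix Expression Console with PLIER to make the deposited intensity of each probe set, and no setting or version is stated there. The deposited intensities are linear, from 0.000116 to 15672, and arrays differ in median and spread. Depth has no meaning for arrays: the number of rats limits the precision, and the smallest exact permutation p with 3 against 3 rats is 0.1. The labels name separate rats.

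Here probe sets with several genes (323) or none (13581) were set aside, each of 14506 genes was represented by its probe set of highest mean (527 had several), and log2(intensity + 16) was fitted without further normalization. The dimmest 30% of genes by mean over all 12 arrays were left out. Symbols came from the platform annotation and 15279 probe sets matched RefSeq by Entrez ID. Symbols of close relatives may share transcripts on a probe set. One fit with limma 3.58.1 in R 4.3.3 (lmFit and eBayes, two-sided, 8 residual degrees of freedom) held all 12 arrays with 1 mean for each of 4 groups, and p-values were adjusted by Benjamini-Hochberg over 10154 genes. Tested on simulated data for this comparison with 10154 genes, the fit called 68 of 100 genes changed by 1 on the log2 scale, 100 of 100 changed by 2, and 9 unchanged genes. The simulated noise was independent between genes and arrays and held no difference in scale between arrays. These counts therefore do not give the error rates for the real arrays, whose scales differ.

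The comparison, its gene lists and families and the printed sequences were chosen with earlier results of these data known, so no list is independent evidence of its direction. Named by rule were 10 fixed genes, the 15 largest rises and falls among called genes whose rats do not overlap, the 5 called genes each way with the smallest p, up to 5 called members of each list (or up to 2 where none was called), and 5 genes of the interaction. Other genes named were chosen after their values were seen. Rat numbers are shared between groups in the labels. Deviations of same-numbered vehicle and E2 rats correlated at 0.00062, 0.087 and -0.074, and the numbers were not taken to pair the rats. A correlation over genes cannot show a shift common to a whole array, so it does not settle this. In each group rat 1 had the highest median intensity, and whether same-numbered arrays share a batch was not tested. Alternatives were quantile normalization, median centring, offsets of 1 and 64, other filters, the other probe set, only 6 arrays, array weights, a replicate block and leaving out each rat. Scripts used Python 3.11.15, pandas 2.3.3 and matplotlib 3.10.9.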

Additional observations from a re-analysis of the deposited data

Results flagged for a closer look

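Probe sets for which no gene is listed took no part in the comparison, and part of them carried the same kind of signal. Fitted together with the named ones (limma, Benjamini-Hochberg over 18331 probe sets), 929 of 7378 tested were called (12.6%), 348 higher and 581 lower with E2. Probe set 10865905 was higher by 5.29, with group means of 6.2 with vehicle and 11.5 with E2, and probe set 10824732 by 4.74 (6.25 and 11). On the other side probe set 10841226 fell by 4.08 (11 and 6.93) and probe set 10841209 by 3.63 (8.89 and 5.26). Which transcripts these read was not analysed here.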

How the results depend on the processing

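No named gene that was called reversed its sign in the alternatives run. Rpl24, named though not called, went from 0.27 to -0.14 after quantile normalization without vehicle rat 1. The number of called genes moved. The count of called genes, 1842, was 3900 after quantile normalization with the dim genes chosen anew (3904 on the same genes as before), 3711 with array weights (whose estimation stopped before convergence), 1183 with the dimmest 50% left out and 961 with only the 6 arrays of E2 and vehicle. With 1 rat left out it ran from 999 (without E2 rat 3) to 3546 (without vehicle rat 1). An alternative added after seeing the data, quantile normalization without vehicle rat 1, gave 4666. The other alternatives gave 1622 to 2545. The highest came with a replicate block on the rat numbers, which were not taken to pair the rats (1112 genes higher and 1433 lower). Fewer genes or arrays enter some of these fits, and for the rest the cause was not tested. Median centring gave 2336 genes, 65.7% of them higher against 47.9% as deposited. Of 315 named genes 72 lost their call without E2 rat 3, 56 without E2 rat 2, 39 without E2 rat 1, 38 without vehicle rat 2, 26 without vehicle rat 3, 5 without vehicle rat 1, 56 with only 6 arrays, 16 with an offset of 64, 15 with array weights, 11 after median centring and 1 after quantile normalization. The interaction called 0 genes in the other alternatives that could be fitted and 256 with array weights (178 higher and 78 lower). It could not be fitted to only 6 arrays. Levels near the dim limit set how well large folds are measured.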

Other observations

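Gene families outside the groups above were mostly called at shares under or near the 18.1% over all genes. Of 33 tubulin and kinesin genes 4 [2 to 9] were higher and 1 [1 to 3] lower, with 15.2% called. Kif23, a motor of cell division, had intensities of 74.2, 47.8 and 56.6 in the vehicle rats and 400, 169 and 197 in the E2 rats, a rise of 1.77 ± 0.32. The axonal motor gene Kif1a fell by 1.11. Of 20 genes that load tRNA with amino acids 2 [1 to 11] were higher and 0 lower, the tryptophan enzyme Wars1 (1.29 ± 0.34) and the arginine enzyme Rars1 (1.07 ± 0.25), with 10% called. Cytochrome P450 genes were lower in 2 of 18 and higher in 0 [0 to 2], with Cyp4b1 at -1.73 ± 0.25 and the sterol hydroxylase Cyp27a1 at -0.88 ± 0.19, with 11.1% called. Genes of the TNF family and its receptors were lower in 3 of 18 and higher in 1 [0 to 4], with the receptor gene Tnfrsf19 going from 302, 199 and 191 to 56.6, 39.9 and 35.99 (-2.02 ± 0.22), with 22.2% called. Regulators of G protein signalling rose in 2 [0 to 3] of 12, Rgs18 (1.04 ± 0.28) and Rgs4 (0.92 ± 0.28), the latter a brake on contraction signals, and fell in 1 [0 to 1], Rgs9 (-0.82 ± 0.21), with 25% called. Heat shock genes were higher in 2 [0 to 18] of 50 and lower in 0 [0 to 3], and histone genes in 1 [1 to 5] and 0 [0 to 1] of 12.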
